A study of Mus musculus with 6 samples.

Results

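The genes of the fibroblast extracellular matrix were followed in 6 RNA libraries of cultured mouse spermatogonia. The set holds 31 of the 32285 genes in the count table and was defined by gene name: collagens, other matrix proteins, the enzymes that shape and cut the matrix, their inhibitors, and markers of mesenchymal cells. All 31 names were found, each in 1 row, and all 31 passed the filter on low counts. The 3 control libraries came from GS cells, germline stem cells grown from mouse testis, with the genotype p57 flox/flox, in which both alleles of Cdkn1c carry loxP sites. The 3 p57 KO libraries came from cells of the genotype p57 flox/flox-Cre, so the floxed alleles are shared by both groups, and Cre recombinase was supplied by an adenovirus. RNA was extracted 2 days after infection, from trypsin-dispersed cells that had been run through a Sephadex column. Donor mice were 3 days old by the growth protocol and 10 days old by the design text, and the strain is BDF1 in one label and C57BL/6 and 129 in another. The protocol, which is the same for all 6 libraries, speaks of an infection but does not say which virus, if any, the control cells received. The sources used here also do not say whether the cells grew on a feeder layer, or how many lines or mice the libraries came from.

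Matrix genes are the working products of fibroblasts. Fibrillar collagens assemble from 3 chains into a triple helix, are folded with the help of the chaperone encoded by Serpinh1 and cross-linked outside the cell by lysyl oxidases, while fibronectin, fibrillin and small proteoglycans bind and order the fibres. Metalloproteases cut the matrix and TIMP proteins block them. Germline stem cells are commonly kept on a layer of embryonic fibroblasts, and cells from testis can also bring peritubular and interstitial mesenchyme into such a culture. Some matrix genes, such as those of the basement membrane, are also used by epithelial and germ cells.

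Because these genes differed in fold while nearly all had their highest values in the same libraries, promoters of 3 with a large fold are shown beside those of 2 with a small one, chosen after their values were seen. The RefSeq promoter table (GRCm38.p6, 250 bases before to 50 after the start) held 23 windows for 21 of the 31 genes. Shown are the 250 bases before the start for Col3a1, Bgn and Timp1, whose RNA was over 2-fold higher in p57 KO, and for Col5a1 and Serpinh1, whose RNA differed little. None of these stretches overlaps an exon in GENCODE M21. They lie at chr1:45311288-45311537 (plus strand), chrX:73483351-73483600 (plus), chrX:20869916-20870165 (plus), chr2:27886175-27886424 (plus) and chr7:99353240-99353489 (minus). Capitals mark matches on either strand to the TATA box (TATAAA), the CCAAT box (CCAAT), the GC box that SP1 binds (GGGCGG), the site of AP-1 (TGANTCA) and the short element of SMAD factors (CAGAC). Near the start of Bgn a pair of GC boxes overlaps.
Col3a1: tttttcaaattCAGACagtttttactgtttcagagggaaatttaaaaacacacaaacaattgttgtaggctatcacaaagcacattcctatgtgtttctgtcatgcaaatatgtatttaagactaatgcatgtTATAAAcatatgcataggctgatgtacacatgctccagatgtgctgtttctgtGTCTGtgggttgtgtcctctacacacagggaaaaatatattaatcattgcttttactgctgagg
Bgn: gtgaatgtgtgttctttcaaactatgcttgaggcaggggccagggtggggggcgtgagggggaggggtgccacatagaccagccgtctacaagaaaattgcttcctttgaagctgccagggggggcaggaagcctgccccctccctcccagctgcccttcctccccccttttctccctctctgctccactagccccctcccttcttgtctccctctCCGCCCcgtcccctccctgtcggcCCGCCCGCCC
Timp1: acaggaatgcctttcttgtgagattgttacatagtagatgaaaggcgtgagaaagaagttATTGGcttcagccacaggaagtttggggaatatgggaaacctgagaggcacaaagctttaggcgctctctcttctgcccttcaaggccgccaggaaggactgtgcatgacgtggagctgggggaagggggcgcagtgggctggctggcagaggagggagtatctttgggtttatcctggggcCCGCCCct
Col5a1: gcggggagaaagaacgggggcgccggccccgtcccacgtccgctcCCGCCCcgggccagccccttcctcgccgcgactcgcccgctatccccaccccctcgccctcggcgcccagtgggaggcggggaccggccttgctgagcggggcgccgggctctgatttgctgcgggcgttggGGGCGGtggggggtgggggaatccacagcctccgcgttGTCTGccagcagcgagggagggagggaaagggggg
Serpinh1: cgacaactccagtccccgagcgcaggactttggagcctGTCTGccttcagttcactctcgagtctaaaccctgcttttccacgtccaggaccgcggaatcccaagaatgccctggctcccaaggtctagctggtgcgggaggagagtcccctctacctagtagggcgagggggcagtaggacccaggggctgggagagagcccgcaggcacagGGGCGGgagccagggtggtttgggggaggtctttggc
Of these 5 stretches, only that of Col3a1 holds a TATAAA, and GGGCGG is in the other 4, with large and with small differences in RNA alike. Over the 300-base windows, TATAAA was in 17.4% of the 23 and in 13.6% of all 32851 promoters of the table. CCAAT was in 39.1% against 37.4%, CAGAC in 47.8% against 49.6%, TGANTCA in 4.35% against 7.81% and GGGCGG in 56.5% against 35.7%. A match is a description of these letters and shows no binding.

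Depth did not separate the groups: the control libraries held 15662833 to 16979459 counts and those of p57 KO 15940375 to 17893671. Levels are in CPM, the counts of a gene scaled to a common library total after TMM normalisation, and every triplet of values below is in the order of replicates 1, 2 and 3. Cdkn1c, which encodes the cell cycle inhibitor p57, checked the labels: it stood at 20.9, 21.4 and 19.9 CPM in control and at 8.71, 9.44 and 8.51 CPM in p57 KO (-1.22 on the log2 scale, adjusted p = 4.07e-09 in edgeR). Germ cell RNA was present in every library: Ddx4, a germ cell RNA helicase, lay between 387 and 402 CPM. It was slightly lower in every p57 KO library than in every control without passing the test (-0.043 on the log2 scale). Most of the other germ cell markers fell, as given below. The labels do not say that replicates were separate cultures, so every p-value refers to the scatter among these 6 libraries and that scatter may be technical.

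The matrix genes as a set were higher in p57 KO and differed between libraries within each group. Together they took 0.139, 0.180 and 0.143% of all counts in the control libraries and 0.214, 0.295 and 0.435% in the p57 KO libraries. Counting error is small beside these differences, with a 95% Wilson interval of 0.138 to 0.141% for the lowest share and 0.432 to 0.438% for the highest. Such intervals cover counting error only. Control replicate 2 was the highest control and p57 KO replicate 3 held over 2 times the share of p57 KO replicate 1, yet the lowest p57 KO library lay above the highest control. In bulk RNA, more cells of a type and more RNA per cell cannot be told apart.

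**Figure D1:**
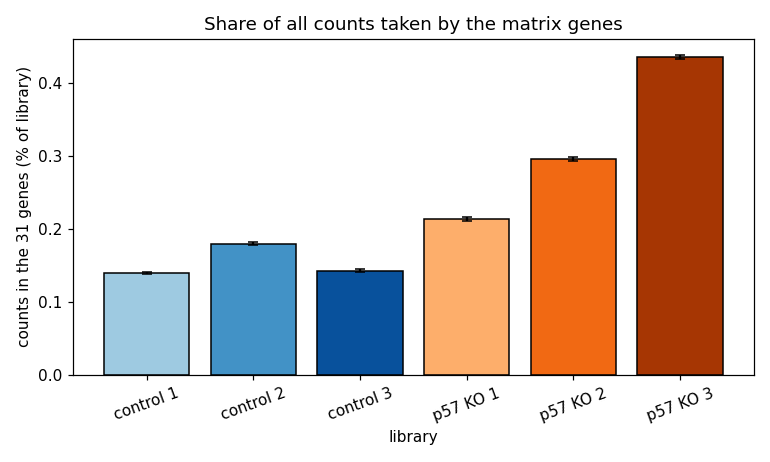
Percent of all counts in a library (vertical axis) that fell on the 31 matrix genes, for 3 control and 3 p57 KO libraries; error bars are 95% Wilson intervals for counting error. The bars run from 0.139% in control replicate 1 to 0.435% in p57 KO replicate 3, and all p57 KO bars stand above the control bars.

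Fold changes, given as log2 of p57 KO over control, had a median of 1.53 over the 31 genes, beside -0.0019 over all 14814 genes tested. The value was above 0 for 30 of the 31, where 49.6% of all genes were. It reached at least 1, a doubling, for 25 of the 31, against 4.08% of all genes. The 3 p57 KO libraries lay above all 3 control libraries for 26 of the 31, against 19.5% of all genes, while 0 lay below, against 19.7%. The groups overlapped for Postn, Lox, Pdgfrb, Fstl1 and Serpinh1. An exact permutation test on 3 against 3 libraries cannot give a two-sided p under 0.1 for any single gene.

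Only 3 of the 31 passed the test in edgeR (adjusted p under 0.05): Col5a1, Col6a2 and Pdgfra rose. That is 9.68% of the set, close to the 11.6% of all genes called higher, so the count of calls does not set the set apart. With the p-value unadjusted, 27 of the 31 were under 0.05 and higher, against 18.2% of all genes. None of the 31 fell, where 11.6% of all genes did, and 0 were lower at an unadjusted p under 0.05. The number of calls depended on the fit: 26 rose in DESeq2 (8.42% of the genes it tested), which differs in scaling, filter, dispersion and test, and 29 in edgeR without robust dispersion estimates (12.5%), an alternative chosen after seeing the data. The robust fit gave these genes a median prior of 0.189 degrees of freedom against 17.9 for all genes, so that their p-values rested on the 4 residual degrees of freedom of their own scattered libraries. Leaving out 1 library also moved the count: 19 rose without p57 KO replicate 1 (14.2% of all genes), 7 without p57 KO replicate 3 (9.71%), 2 without p57 KO replicate 2 (8.55%), 1 without control replicate 1 (8.12%) and 1 without control replicate 3 (7.78%).

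**Figure D2:**
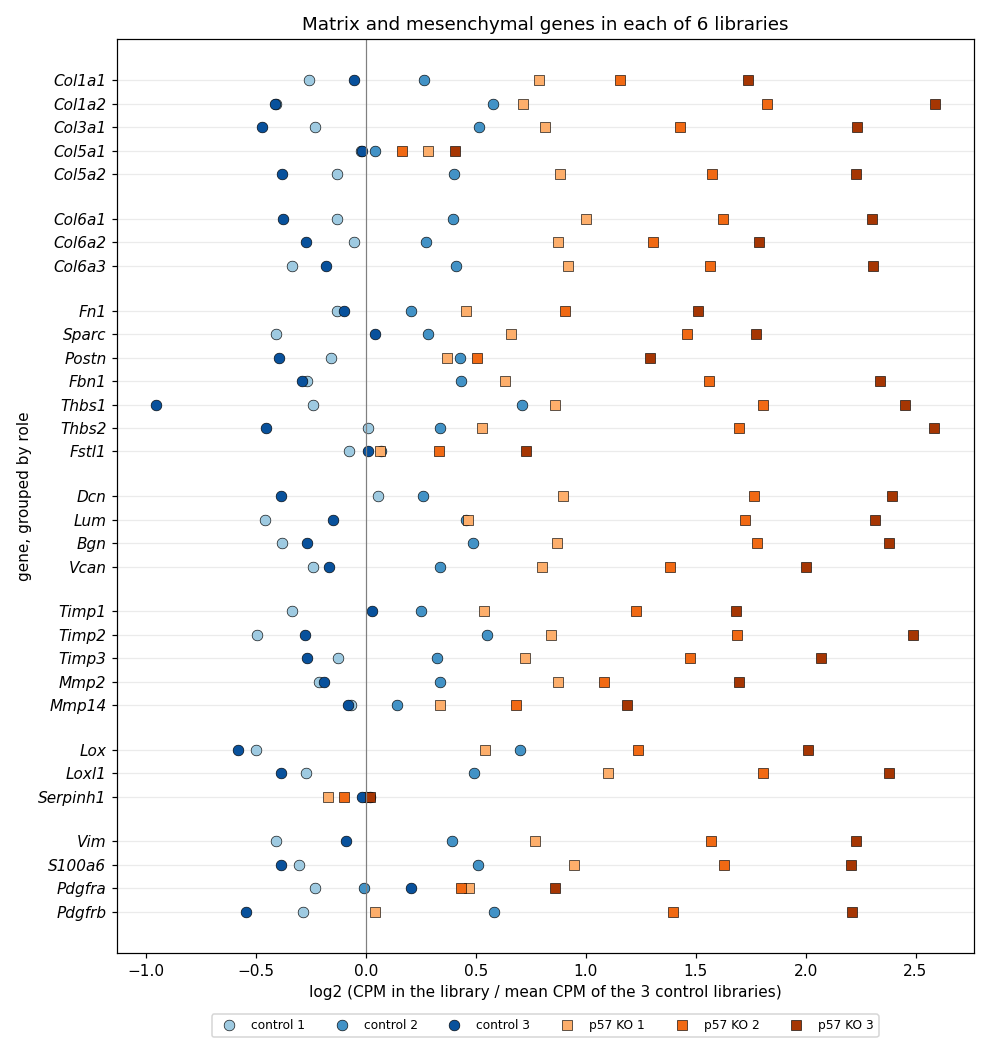
Level of each of the 31 genes in each library as log2 of its CPM over the mean of the 3 control libraries (horizontal axis), with genes grouped by role (vertical axis); circles are control and squares p57 KO libraries. In every row the square of p57 KO replicate 3 lies farthest right among the squares, and for Col5a1 and Serpinh1 all points lie close to 0.

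The fibrillar collagens parted into 4 genes that were higher by more than a doubling and 1 with a small difference. Col1a1 and Col1a2 encode the chains of type I collagen, the main fibre of skin, bone and tendon. Col1a1, on chromosome 11 from 94936224 to 94953042 (mm10), stood at 49.2, 70.7 and 56.8 CPM in the control libraries and 101, 131 and 197 CPM in the p57 KO libraries. The groups did not overlap, but the p57 KO libraries were spread widely (1.28 ± 0.33 SE on the log2 scale, adjusted p = 0.0626 in edgeR). Col1a2 stood at 15.8, 31.2 and 15.7 CPM in the control libraries and 34.3, 74.1 and 126 CPM in the p57 KO libraries, the largest fold of the 31 genes (1.90 ± 0.65 SE on the log2 scale, adjusted p = 0.12 in edgeR). Its control replicate 2 reached nearly the level of p57 KO replicate 1.

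Col3a1, the type III chain of elastic tissues, stood at 36.6, 61.2 and 30.9 CPM in the control libraries and 75.5, 115 and 202 CPM in the p57 KO libraries (1.61 ± 0.52 SE on the log2 scale, adjusted p = 0.107 in edgeR). It had the same order of libraries as Col1a2. Col5a2, a chain of the type V collagen that seeds type I fibres, went from 10.2 ± 2.94 CPM to 32.5 ± 14.7 CPM (mean ± SD of 3 libraries), or 1.66 on the log2 scale. Col5a1, its partner chain, behaved differently. It was among the most abundant of the 31, on chromosome 2 from 27886425 to 28039514, at 281, 294 and 282 CPM in the control libraries and 347, 320.0 and 378 CPM in the p57 KO libraries. All p57 KO libraries lay above control by a small step, and the gene rose (0.29 ± 0.061 SE on the log2 scale, adjusted p = 0.0194 in edgeR). That call was lost at folds of like size without control replicate 1 (adjusted p = 0.0912), control replicate 3 (0.0947) or p57 KO replicate 1 (0.0834). The ratio of Col5a1 to Col5a2 per kilobase of exon was lower in every p57 KO library than in every control, at 34.0, 24.5 and 40.5 in control and 20.8, 11.9 and 8.89 in p57 KO. Exons of Col5a1 overlap 2 unnamed genes on the other strand, and the sources used here do not say whether the counting used strand.

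Collagen VI, a beaded filament that anchors cells to the matrix around them, is built from the chains of Col6a1, Col6a2 and Col6a3, and all 3 were higher. Col6a2 stood at 23.0, 28.8 and 19.8 CPM in the control libraries and 43.7, 59.0 and 82.3 CPM in the p57 KO libraries and rose (1.37 ± 0.32 SE on the log2 scale, adjusted p = 0.0488 in edgeR). It was the least scattered of the 3. Its adjusted p exceeded 0.05 in each fit that left out 1 library apart from p57 KO replicate 1, up to 0.154 without control replicate 3, and also with no filter on low counts (0.073), in limma-voom (0.0734) and with the replicate number as a block (0.137). Col6a1 stood at 20.1, 28.9 and 16.9 CPM in the control libraries and 44.0, 67.7 and 108 CPM in the p57 KO libraries (1.74 ± 0.46 SE on the log2 scale, adjusted p = 0.0671 in edgeR) and Col6a3 differed by 1.71 on the log2 scale (adjusted p = 0.0785 in edgeR). Per kilobase of exon, Col6a3 over Col6a1 was 0.771, 0.896 and 1.02 in control and 0.838, 0.854 and 0.894 in p57 KO, with overlapping groups. The levels of both chains differed over 3-fold between the groups. Col6a2 over Col6a1 was 0.602, 0.525 and 0.613 in control and 0.522, 0.458 and 0.400 in p57 KO. It was lower in every p57 KO library than in every control, by a thin margin for replicate 1.

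Fn1, which encodes the adhesive glycoprotein fibronectin, was the most abundant of the 31 by CPM. On chromosome 1 from 71585520 to 71653200, it stood at 378, 478 and 387 CPM in the control libraries and 569, 777 and 1181 CPM in the p57 KO libraries (1.02 ± 0.32 SE on the log2 scale, adjusted p = 0.102 in edgeR). Every p57 KO library was above every control library, and p57 KO replicate 3 was 2.08 times p57 KO replicate 1. Fbn1, the gene of the microfibril protein fibrillin, went from 22.4 ± 6.83 CPM to 71.4 ± 39.5 CPM (mean ± SD of 3 libraries), or 1.67 on the log2 scale. Sparc, a collagen-binding protein of remodelling tissue, had a log2 fold change of 1.37. The thrombospondins Thbs1 and Thbs2, secreted proteins that bind cells and growth factors, had log2 fold changes of 1.84 and 1.84. Thbs1 was the most uneven of the 31 in control, at 7.76, 15.0 and 4.73 CPM. Exons of Fn1, Fbn1 and Thbs1 each overlap a gene on the other strand.

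Postn and Fstl1, also secreted glycoproteins, differed less. Postn, the gene of periostin, was near the lower end of the set at 1.88, 2.82 and 1.60 CPM in the control libraries and 2.71, 2.98 and 5.15 CPM in the p57 KO libraries (0.78 ± 0.27 SE on the log2 scale, adjusted p = 0.0522 in edgeR). Its control replicate 2 lay above p57 KO replicate 1, so the groups overlapped. It was called higher without control replicate 2 (adjusted p = 0.0233) or p57 KO replicate 1 (0.008), with no filter on low counts (0.00216) and with the replicate number as a block (0.0418). Fstl1, a follistatin-like protein of mesenchymal cells, stood at 70.6, 78.0 and 74.9 CPM in the control libraries and 77.9, 93.7 and 123 CPM in the p57 KO libraries (0.41 ± 0.20 SE on the log2 scale, adjusted p = 0.242 in edgeR). Only p57 KO replicates 2 and 3 lay above the controls.

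The proteoglycans of the matrix were all higher without passing the test. Bgn, the gene of biglycan, which binds collagen fibrils, stood at 29.7, 54.2 and 32.1 CPM in the control libraries and 70.7, 133 and 201 CPM in the p57 KO libraries (1.80 ± 0.53 SE on the log2 scale, adjusted p = 0.0851 in edgeR). Dcn, the gene of decorin, a relative that also limits fibril width, had fewer counts at 2.61, 3.00 and 1.92 CPM in the control libraries and 4.67, 8.52 and 13.2 CPM in the p57 KO libraries (1.81 ± 0.49 SE on the log2 scale, adjusted p = 0.065 in edgeR), and its lowest p57 KO library was 1.56 times its highest control. Lum, the gene of lumican, stood at 1.03, 1.94 and 1.28 CPM in the control libraries and 1.96, 4.69 and 7.06 CPM in the p57 KO libraries (1.69 ± 0.58 SE on the log2 scale, adjusted p = 0.111 in edgeR). Its groups were separated only narrowly, by p57 KO replicate 1 over control replicate 2. Vcan, which encodes the large proteoglycan versican, differed by 1.48 on the log2 scale (adjusted p = 0.0749 in edgeR).

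**Figure D3:**
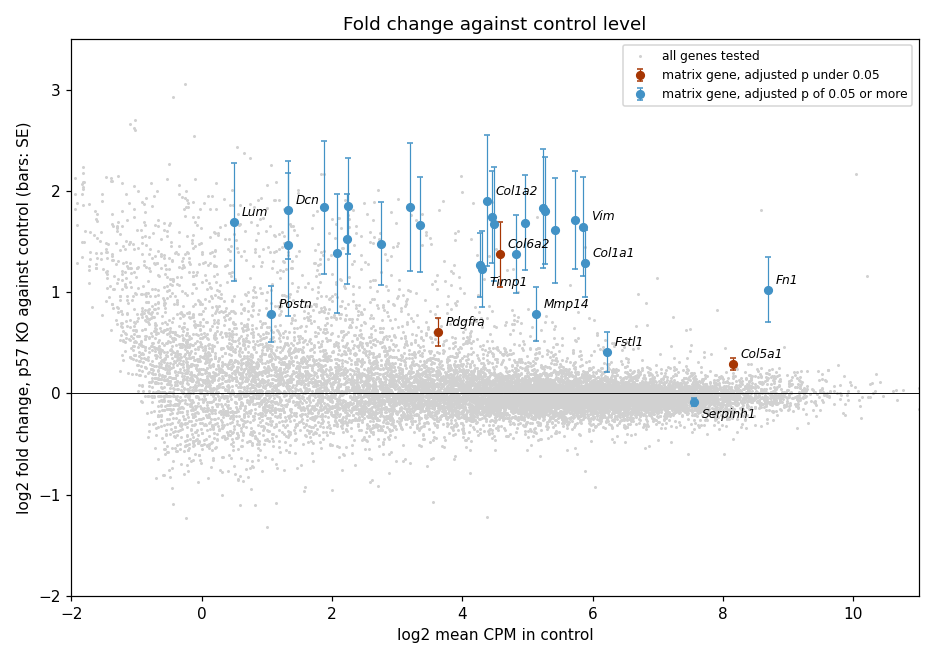
Log2 fold change, p57 KO against control (vertical axis, bars are SE), against log2 of the mean CPM in control (horizontal axis) for the 31 matrix genes and, in grey, all genes tested. In all, 25 of the 31 lie between 1.02 and 1.90, while Serpinh1 and Col5a1 lie near 0 and Fstl1 at 0.41. Of the genes with the highest control levels, Fn1, Col5a1, Serpinh1 and Fstl1, only Fn1 is among the 25, and it is the lowest of them.

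The enzymes that cut the matrix and their inhibitors were higher together. Mmp2, a gelatin-cutting metalloprotease, stood at 16.6, 24.4 and 16.9 CPM in the control libraries and 35.3, 40.8 and 62.6 CPM in the p57 KO libraries (1.26 ± 0.32 SE on the log2 scale, adjusted p = 0.06 in edgeR). Mmp14, the membrane-bound protease that activates the Mmp2 protein, had the smaller fold, at 33.3, 38.5 and 33.0 CPM in the control libraries and 44.1, 56.2 and 79.6 CPM in the p57 KO libraries (0.78 ± 0.27 SE on the log2 scale, adjusted p = 0.119 in edgeR). Neither pair of groups overlapped. Among the inhibitors, Timp2 had the largest fold, at 26.8, 55.3 and 31.2 CPM in the control libraries and 67.6, 122 and 212 CPM in the p57 KO libraries (1.83 ± 0.59 SE on the log2 scale, adjusted p = 0.106 in edgeR). Timp1, on chromosome X from 20870166 to 20874735, stood at 15.5, 23.4 and 20.01 CPM in the control libraries and 28.5, 46.0 and 63.1 CPM in the p57 KO libraries (1.23 ± 0.38 SE on the log2 scale, adjusted p = 0.0954 in edgeR). Timp3, which stays bound to the matrix, went from 4.70 ± 1.05 CPM to 13.5 ± 5.99 CPM (mean ± SD of 3 libraries), and its exons overlap Syn3 on the other strand. Per kilobase, Timp2 over Timp1 was 0.393, 0.540 and 0.355 in control and 0.541, 0.603 and 0.765 in p57 KO, higher in every p57 KO library by a margin that was thin for replicate 1.

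Lysyl oxidases cross-link collagen and elastin, and Serpinh1 encodes HSP47, the chaperone that holds procollagen in the endoplasmic reticulum. The cross-linking enzymes were higher: Loxl1 stood at 3.94, 6.71 and 3.64 CPM in the control libraries and 10.2, 16.7 and 24.8 CPM in the p57 KO libraries (1.85 ± 0.47 SE on the log2 scale, adjusted p = 0.0619 in edgeR). Lox stood at 2.97, 6.83 and 2.81 CPM in the control libraries and 6.12, 9.92 and 16.9 CPM in the p57 KO libraries (1.38 ± 0.59 SE on the log2 scale, adjusted p = 0.187 in edgeR), with control replicate 2 above p57 KO replicate 1. Serpinh1, the only one of the 31 with a fold change below 0, lay on chromosome 7 from 99345376 to 99353239 at 188, 191 and 186 CPM in the control libraries and 167, 176 and 190.4 CPM in the p57 KO libraries (-0.082 ± 0.039 SE on the log2 scale, adjusted p = 0.144 in edgeR). Its groups overlapped and its 3 control libraries were almost equal. It was called lower with no filter on low counts (log2 fold change -0.08, adjusted p = 0.0469) and without p57 KO replicate 3 (-0.14, adjusted p = 0.00496).

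The receptors of platelet-derived growth factor mark mesenchymal cells and drive their growth. Pdgfra stood at 10.5, 12.2 and 14.2 CPM in the control libraries and 17.0, 16.6 and 22.3 CPM in the p57 KO libraries and rose by less than most of the set (0.61 ± 0.13 SE on the log2 scale, adjusted p = 0.00689 in edgeR). All its p57 KO libraries were above control, replicates 1 and 2 at nearly 1 level, and the call was kept in every alternative tried. Exons of Pdgfra overlap 2 unnamed genes on the other strand and a microRNA gene on its own. Pdgfrb, typical of pericytes and fibroblasts, stood at 2.06, 3.77 and 1.73 CPM in the control libraries and 2.59, 6.64 and 11.7 CPM in the p57 KO libraries (1.47 ± 0.70 SE on the log2 scale, adjusted p = 0.232 in edgeR). It had the widest range among p57 KO libraries, 4.50-fold, and control replicate 2 was above p57 KO replicate 1.

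Vim, the gene of the intermediate filament protein vimentin, stood at 43.6, 75.8 and 54.3 CPM in the control libraries and 98.6, 172 and 272 CPM in the p57 KO libraries (1.65 ± 0.49 SE on the log2 scale, adjusted p = 0.0901 in edgeR). S100a6, a small calcium-binding protein of proliferating fibroblasts, stood at 25.2, 44.4 and 23.8 CPM in the control libraries and 60.1, 96.4 and 144 CPM in the p57 KO libraries (1.68 ± 0.47 SE on the log2 scale, adjusted p = 0.0772 in edgeR). The groups of both genes were separate. Both had the library order seen for the collagens, with control replicate 2 above the other controls and p57 KO replicate 3 above the other p57 KO libraries.

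That order was shared by nearly the whole set. Among the controls, replicate 2 had the highest value for 30 of the 31 genes, all but Pdgfra, whereas 35.7% of all genes had their highest control value there. In p57 KO, replicate 3 was highest for 31 of the 31 genes (32.9% of all genes) and replicate 1 lowest for 29 (34.2%), Col5a1 and Pdgfra being lowest in replicate 2. Relative to the control mean, the median gene of the set stood at -0.19, 0.38 and -0.21 log2 units in the control libraries and at 0.78, 1.46 and 2.01 in the p57 KO libraries, on log2 of CPM plus 0.5. These counts describe the libraries and carry no test, since the genes of a library are not independent of each other.

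The spread within a group was large beside that of other genes. The highest control library was a median of 1.67 times the lowest over the 31 genes (1.02 for Serpinh1 to 3.17 for Thbs1), against 1.09 for 13794 genes with a mean of at least 1 CPM and no value of 0. For the p57 KO libraries the median was 2.46 times (1.14 for Serpinh1 to 4.50 for Pdgfrb), against 1.10. The step from the highest control to the lowest p57 KO library was smaller, a median of 1.22 times against 0.907 for the 13794 genes. It ran from 0.687 for Pdgfrb to 1.56 for Dcn. For 31 of the 31 genes the range among p57 KO libraries exceeded this step. The medians over the 13794 genes had the same order (1.10 and 0.907), so this count does not set the 31 apart.

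**Figure D4:**
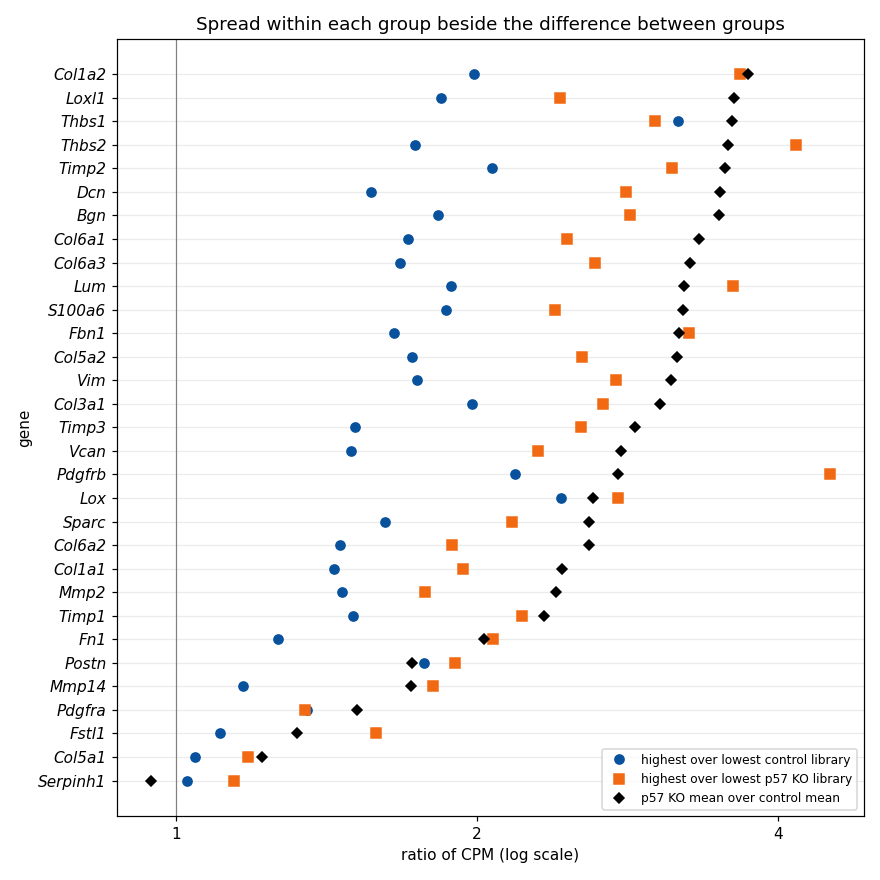
Ratio of CPM on a log scale (horizontal axis) for each of the 31 genes (vertical axis): highest over lowest control library (circles), highest over lowest p57 KO library (squares) and p57 KO mean over control mean (diamonds). Squares lie to the right of circles for all genes but Thbs1 and Pdgfra, and the diamond reaches 3.73 for Col1a2.

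The makeup of the set shifted as its level did. Fn1, Col5a1 and Serpinh1 held 60.9, 53.5 and 59.9% of the set's CPM in control and 50.3, 43.1 and 40.1% in p57 KO. The other 28 genes summed to 544, 835 and 573 CPM in control and 1068, 1679.9 and 2614 CPM in p57 KO. Set against the summed CPM of the other 30 genes, 16 members lay higher in every p57 KO library than in every control, 4 lay lower and 11 overlapped. This ratio is defined within the set, so it has no share over all genes beside it. Col5a1 and Serpinh1, a large part of the sum, differed little (0.29 and -0.082 on the log2 scale). A gene that stays while the others rise gets a lower ratio, so these counts follow in part from arithmetic. The 4 that lay lower were Serpinh1, Col5a1, Fstl1 and Mmp14. Serpinh1 went from 156, 119 and 149.8 per 1000 CPM of the others in control to 84.1, 63.3 and 45.6 in p57 KO. Fn1 kept its place, at 373, 362 and 372 per 1000 in control and 359.6, 357 and 371 in p57 KO. Loxl1 went from 2.84, 3.75 and 2.56 to 4.78, 5.68 and 5.71 per 1000.

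On a scale of CPM per kilobase of exon, which allows genes to be compared, Serpinh1 led the set in control at 77.1 ± 0.948 (SD, n = 3), followed by Fn1 at 35.5 ± 4.72 and Col5a1 at 33.6 ± 0.820, which did not differ beyond their spread. S100a6 and Timp1 came next at 22.8 ± 8.42 and 22.1 ± 4.43, again within their spread. In p57 KO the levels of S100a6 at 73.2 ± 30.7, Serpinh1 at 72.7 ± 4.87 and Fn1 at 72.1 ± 26.6 could not be ordered. The lowest member in both groups was Postn, at 0.241 ± 0.0738 in control and 0.416 ± 0.154 in p57 KO.

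Other matrix genes followed in part. Of 23 tested genes of other matrix proteins, 6 (26.1%) rose and 1 fell, where 11.6% of all genes were called in each direction. Their median log2 fold change was 1.15, and 14 (60.9%) were higher in every p57 KO library than in every control, against 19.5% of all genes. The count that rose was 15 without p57 KO replicate 1 and 14 in DESeq2. Fbln5 and Eln, which build elastic fibres, rose on the log2 scale by 1.71 and 1.31, and Has2, which makes hyaluronan, by 1.97, from low levels in control that reached at most 0.824 CPM for Fbln5 and 0.471 CPM for Has2. Fbln5 and Has2 passed the filter on low counts only through their p57 KO libraries. Fbln1, a basement membrane fibulin at 141, 134 and 138 CPM in control, fell by 0.21 on the log2 scale (adjusted p = 0.000145 in edgeR). Of 14 other matrix proteases and inhibitors, 2 (14.3%) rose, near the share of all genes, and 0 fell (median 0.061): Adamts1 by 1.23 on the log2 scale and Mmp19 by 1.28. Adamts4 and Mmp3 had log2 fold changes of 0.60 and 1.98 without passing the test. Of these 14, 5 rose without p57 KO replicate 1, 4 in DESeq2 and 1 without control replicate 1 or control replicate 3.

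The machinery of collagen synthesis differed less. Of 24 tested genes, 5 (20.8%) rose, against 11.6% of all genes, and 0 fell. The median log2 fold change was 0.20. The count that rose was 10 without p57 KO replicate 1 and in DESeq2, 3 without control replicate 1 or p57 KO replicate 2, and 2 without control replicate 3. Fkbp10, Crtap and P3h3, which fold and modify procollagen in the endoplasmic reticulum, rose on the log2 scale by 0.39, 0.37 and 1.16, the lysyl oxidase gene Loxl4 by 1.37 and the lysyl hydroxylase gene Plod3 by 0.14. Of 14 basement membrane genes, 6 (42.9%) rose and 1 fell (median 0.33). Lama5, a laminin chain at 178, 178 and 186 CPM in control and 243, 228 and 249 CPM in p57 KO, rose evenly (0.41 ± 0.034 SE on the log2 scale, adjusted p = 1.94e-08 in edgeR), and on the same scale Agrn rose by 0.23, Lamb2 by 0.24 and Lama2 by 1.38. The libraries of Lama5 did not follow the order of the collagens. Lama2 passed the filter on low counts only through its p57 KO libraries.

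Receptors for matrix were mostly without a call: of 16, 4 (25%) rose, against 11.6% of all genes, and 1 fell (median 0.15). Leaving out p57 KO replicate 1 gave 7 that rose, leaving out p57 KO replicate 2 gave 2, and 1 rose without control replicate 1 or control replicate 3. Ddr2, a receptor for fibrillar collagen, rose from 21.2 ± 4.13 CPM to 54.0 ± 14.2 CPM (mean ± SD of 3 libraries; 1.35 ± 0.28 SE on the log2 scale, adjusted p = 0.0354 in edgeR). Sdc1 and Itga2 rose on the log2 scale by 0.38 and 1.51, and Sdc4, a syndecan at 966, 925 and 924 CPM in control, fell by 0.22 on the log2 scale. Itga2, at most 0.530 CPM in control, passed the filter on low counts only through its p57 KO libraries. Of 20 genes of TGF-beta, PDGF and CCN signalling, 6 (30.0%) rose and 2 fell (median 1.25), with 16 that rose in DESeq2 and 14 without p57 KO replicate 1. Tgfb3 and Pdgfc, ligands, and Ltbp4, which stores latent TGF-beta in the matrix, rose on the log2 scale by 1.02, 1.64 and 1.67, while the ligand gene Pdgfb fell by 0.23 on the log2 scale.

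Markers of mesenchymal cells outside the set were higher in part. Of 21 tested fibroblast markers, 9 (42.9%) rose, against 11.6% of all genes, and 0 fell. Their log2 fold changes had a median of 0.92. For 15 (71.4%) every p57 KO library was above every control, against 19.5% of all genes. The count that rose was 15 without p57 KO replicate 1 and 5 without control replicate 1 or p57 KO replicate 2. Among the others, Twist1, Foxf1 and Cdh2 had log2 fold changes of 0.0048, 0.040 and -0.067 with overlapping groups. Prrx2, a mesenchymal transcription factor, was lower in every p57 KO library without passing the test (-0.13 on the log2 scale). Eng, a TGF-beta co-receptor, rose from 42.6 ± 2.43 CPM to 62.2 ± 2.66 CPM (mean ± SD of 3 libraries; 0.55 ± 0.052 SE on the log2 scale, adjusted p = 1.72e-07 in edgeR). Twist2, Snai2 and Dpt rose on the log2 scale by 1.93, 1.82 and 1.77, all from at most 0.767 CPM in control. Each passed the filter on low counts only through its p57 KO libraries, and each is among the 9. The summed level of the list was 264, 282 and 273 CPM in control and 322, 363 and 435 CPM in p57 KO, with Tcf21 at 0 in every library. What part these cells have in the level of the collagens was not tested.

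The tested genes of contractile peritubular cells were higher with another order of libraries. Of 9 listed, 5 were tested, and Cnn1, Actg2, Lmod1 and Myocd, at or under 0.840 CPM, were not. Of the 5 tested, 4 (80.0%) rose and 0 fell, where 11.6% of all genes were called in each direction, and 2 rose without control replicate 3. Tagln, an actin-binding protein of smooth muscle, stood at 2.18, 2.41 and 2.43 CPM in the control libraries and 5.05, 6.45 and 7.56 CPM in the p57 KO libraries (1.44 ± 0.18 SE on the log2 scale, adjusted p = 5.57e-06 in edgeR). Acta2, the actin of smooth muscle, stood at 1.46, 3.47 and 2.17 CPM in the control libraries and 4.29, 6.88 and 6.44 CPM in the p57 KO libraries (log2 fold change 1.31), and Des and Myh11 rose on the same scale by 0.87 and 0.47. In this list 1 of the 5 genes was highest in p57 KO replicate 3, where 31 of the 31 matrix genes were. The list summed to 68.7, 80.9 and 81.2 CPM in control and 91.9, 97.8 and 96.2 CPM in p57 KO. Most of this sum was Smtn, the tested gene without a call (0.13 on the log2 scale). Myocd, a regulator that defines smooth muscle, was at 0 in 5 of the 6 libraries and at 0.126 CPM in p57 KO replicate 1.

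Markers of other somatic cells of the testis were present at uneven levels. Of the Sertoli list 8 of 13 genes were tested, 1 (12.5%) rose (Clu, log2 fold change 0.56) and 1 (12.5%) fell (Dmrt1, -0.11, a gene that germ cells also express). Both shares were near the 11.6% of all genes called in each direction. Amh, Gata4, Dhh, Cldn11 and Fshr stayed at or under 0.426 CPM in every library. Without 1 library, 0 to 2 rose and 0 to 2 fell. Sox9, a transcription factor that defines Sertoli cells, was at 15.2 to 20.1 CPM over the 6 libraries, Wt1 at 6.78 to 11.1 CPM and Inhba at 1.46 to 10.1 CPM, none past the test. Inhba (log2 fold change 1.59) was among 3 (37.5%) of the 8 higher in every p57 KO library than in every control, against 19.5% of all genes. The sum of the Sertoli list, most of it Dmrt1, was 446 to 473 CPM in control and 432 to 448 CPM in p57 KO. The Leydig list summed to 3.00 to 3.94 CPM in control and 3.25 to 3.35 CPM in p57 KO, nearly all of it Star, with Hsd3b1 at 0. Of 5 tested endothelial genes, 1 rose (Tek, log2 fold change 0.52) and 2 fell (Cdh5, -0.60, and Kdr, -0.19), and the list summed to 102 to 108 CPM in control and 94.9 to 98.9 CPM in p57 KO, most of it Kdr and Vwf, with Emcn at 0 in 5 of the 6 libraries and at 0.126 CPM in p57 KO replicate 1. The macrophage list summed to 24.5 to 25.4 CPM in control and 23.2 to 27.6 CPM in p57 KO. Of its 9 genes 3 were tested: Lyz2 and Cd68 rose on the log2 scale by 2.13 and 0.40, and Mrc1 fell by 1.07 on the log2 scale. Lyz2, at 0.607, 0.471 and 0.0639 CPM in control, passed the filter on low counts only through its p57 KO libraries. The defining genes Csf1r, Adgre1 and Ptprc stayed at or under 0.353 CPM.

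Germ cell markers were mostly lower. Of 16, 10 (62.5%) fell and 2 (12.5%) rose, where 11.6% of all genes were called in each direction, so only the share that fell stood apart. The median log2 fold change was -0.18, and the list summed to 4908, 4999 and 5029 CPM in control and 4521, 4370 and 4290.4 CPM in p57 KO. Zbtb16, the gene of the spermatogonial factor PLZF, stood at 314, 299 and 317 CPM in the control libraries and 258, 237 and 242 CPM in the p57 KO libraries (-0.34 ± 0.033 SE on the log2 scale, adjusted p = 3.99e-07 in edgeR). Id4, Sall4 and Dazl fell, with log2 fold changes of -0.54, -0.31 and -0.25. The 2 that rose, named after their values were seen, were Epcam and Itga6 (0.13 and 0.12 on the log2 scale, adjusted p = 0.00465 and 0.0415 in edgeR). Cdh1 was also higher in every p57 KO library than in every control, without passing the test (0.44 on the log2 scale). The p57 KO library with the most matrix RNA thus had the lowest germ cell sum. The controls did not show this order: replicate 1 had both the least RNA of the 31 matrix genes (1391 CPM) and the lowest germ cell sum of the controls. How far these values bear on each other was not tested.

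**Figure D5:**
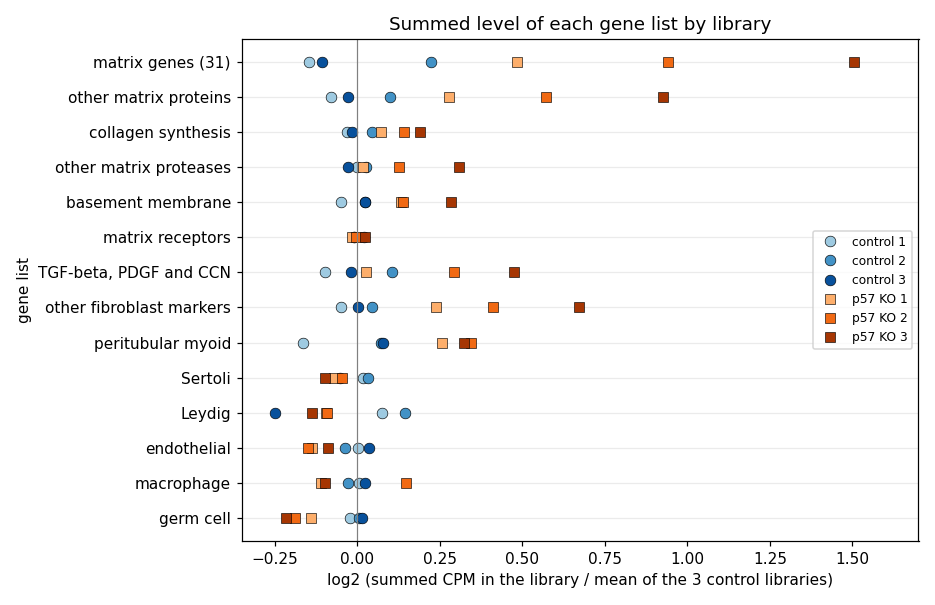
Summed CPM of each gene list in each library as log2 of its ratio to the mean of the 3 control libraries (horizontal axis), with lists on the vertical axis; circles are control and squares p57 KO libraries. The matrix genes and other fibroblast markers spread to the right with p57 KO replicate 3 farthest, while the germ cell list lies to the left of 0 in all p57 KO libraries.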

How the data were processed

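The authors deposited raw counts per gene, 1 column per library, without normalization. Per the submitters' processing notes, the tools included HISAT2 2.2.1 and HTSeq 2.0.2, besides bcl2fastq 2.20 and cutadapt 3.4, with the build mm10. The sources used here do not give the annotation, the strand setting or the handling of reads with several matches. Libraries were sequenced as single reads, per the design text, which names another library kit than the labels do.

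All 32285 genes entered 1 fit. filterByExpr kept 14814, which were normalised with TMM and entered edgeR 4.0.16 in R 4.3.3 (quasi-likelihood F-test, robust, group as the only term) with Benjamini-Hochberg adjustment over all genes tested and a threshold of 0.05. The fit was tested on simulated data. The common biological coefficient of variation was 4.35%. DESeq2 1.42.0, RLE factors, TMM without matrix genes, other filters, the replicate block and leaving out each library were alternatives, and limma 3.58.1 (voom) was added later. Every replicate pair differed by more than sampling noise (chi-square 1.69 to 5.97 per degree of freedom).

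Genes and lists were chosen with earlier results of these data known. Named are all 31 genes, Cdkn1c and up to 4 genes of smallest p per other list, besides defining cell type markers. Positions and exon lengths are from GENCODE M21 (mm10), promoters from RefSeq (GRCm38.p6).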

Additional observations from a re-analysis of the deposited data

How the results depend on the processing

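The median log2 fold change of the 31 genes lay between 1.14 (without p57 KO replicate 3) and 1.89 (without control replicate 2) over the alternatives tried, and no gene of the set changed sign. The number that rose, 3 as reported, was 26 in DESeq2, 5 with the replicate block, 29 in edgeR without robust estimates, 11 without control replicate 2 and p57 KO replicate 3 together, and 1 to 19 over the fits that left out 1 library each. It was 3 with RLE factors, with TMM computed without matrix genes and with at least 1 CPM in 3 libraries, 4 with no filter and 2 in limma-voom. The number that fell, 0 as reported, was 1 (Serpinh1) with no filter, 0 to 1 leaving out 1 library, and 1 without control replicate 2 and p57 KO replicate 3 together. Apart from the robust setting, described with the counts, the cause of these shifts was not tested. The labels do not say whether the replicate numbers pair the libraries. Deviations of same-numbered libraries from their group means had correlations over genes of 0.19, 0.025 and -0.10, within the -0.28 to 0.27 of libraries with unlike numbers. So few correlations cannot decide whether libraries of a number came from a shared experiment, and the block rests on the number alone. Fitting edgeR without robust estimates, limma-voom and leaving out 2 libraries together were chosen after seeing the data. Of the other lists, those that rose changed as follows. Other matrix proteins, 6 as reported, were 14 in DESeq2, 16 without robust estimates, 10 without both libraries named above and 4 to 15 leaving out 1 library. Collagen synthesis, 5, was 10 in DESeq2, 9 with the replicate block, 10 without robust estimates and 2 to 10 leaving out 1. Basement membrane genes, 6, were 8 without robust estimates and 4 to 9 leaving out 1. Proteases, 2, were 4 in DESeq2, with no filter and without robust estimates, and 1 to 5 leaving out 1. Receptors, 4, were 7 with the block and without robust estimates, 2 in limma-voom and 1 to 7 leaving out 1. TGF-beta, PDGF and CCN genes, 6, were 16 in DESeq2, 15 without robust estimates, 12 without both libraries and 4 to 14 leaving out 1. Fibroblast markers, 9, were 14 without robust estimates and 5 to 15 leaving out 1, and peritubular genes, 4, were 2 to 4 leaving out 1. Leaving out 1 library, 0 to 1 basement membrane gene, 0 to 1 fibroblast marker, 1 to 3 signalling genes and 1 to 2 receptors fell. Without both libraries, 0 basement membrane genes and 1 signalling gene fell. Over all genes tested, 1725 rose as reported and 1180 to 2136 leaving out 1 library. Low counts limit Lum, Postn and Pdgfrb, whose smallest library held 17 counts or more.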

Other observations

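Some genes of neighbouring lists, chosen after their values were seen, had the library order of the collagens without passing the test. Tnc, the gene of the wound matrix protein tenascin C, stood at 8.86, 24.5 and 13.9 CPM in the control libraries and 29.7, 69.0 and 111 CPM in the p57 KO libraries (2.15 ± 0.69 SE on the log2 scale, adjusted p = 0.106 in edgeR). Mmp3, a stromal protease, stood at 11.4, 24.5 and 11.8 CPM in the control libraries and 26.9, 57.6 and 104 CPM in the p57 KO libraries (log2 fold change 1.98). Both were separate between the groups, by a narrow margin. S100a4, a fibroblast marker, stood at 5.46, 8.77 and 5.37 CPM in the control libraries and 15.0, 23.2 and 40.5 CPM in the p57 KO libraries (2.01 ± 0.51 SE on the log2 scale, adjusted p = 0.062 in edgeR). The type IV collagen genes Col4a1 and Col4a2, which share a promoter region and form the basement membrane network, had log2 fold changes of 1.88 and 1.90.

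Enzymes of collagen folding, also chosen after their values were seen, differed among themselves. Plod3 rose (0.14 ± 0.049 SE on the log2 scale, adjusted p = 0.0372 in edgeR), as Fkbp10 and Crtap did. P4hb stood at 611, 621 and 593 CPM in the control libraries and 621, 618 and 627 CPM in the p57 KO libraries (log2 fold change 0.033), and Plod1, Ppib and Plod2 had log2 fold changes of -0.013, 0.041 and 0.076, none past the test. Nid1, a basement membrane protein at 407, 418 and 454 CPM in control, had a log2 fold change of 0.015. Gdnf, the growth factor that somatic cells supply to spermatogonial stem cells, stayed at or under 0.412 CPM in all 6 libraries.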
